A study of Mus musculus with 2 samples.

Results

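The guanylate-binding proteins (Gbp) are a family of large GTPases, and 10 of its mouse genes were described here: Gbp2, Gbp2b, Gbp3, Gbp5 and Gbp7 on chromosome 3, and Gbp4, Gbp6, Gbp8, Gbp9 and Gbp10 on chromosome 5. They were taken by name, through their Ensembl gene IDs, from the 55487 genes of a count table. The RNA came from small peritoneal macrophages, 1 of the resident and recruited macrophage types of the peritoneum, sorted from male SWISS mice (outbred) aged 5 weeks. Both groups had received 20 mg/kg lipopolysaccharide (LPS) from Escherichia coli O55:B5 into the peritoneum, which produces endotoxemia, and 30 mL/kg saline under the skin 6 h later, and were killed 22 h after LPS. The LPS+LCC-12 group also received 0.3 mg/kg LCC-12, which binds mitochondrial copper, into the peritoneum 6 h after LPS, and the LPS group did not. The LPS+LCC-12 library was made from 66967 cells pooled from 8 mice, and the LPS library from 102283 cells pooled from 7 mice. Mice without LPS were not analysed here, so how far LPS itself had raised these genes cannot be read from the data.

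Gbp genes are barely expressed in most resting cells and are switched on by interferons, most of all by interferon gamma. Their proteins assemble on the membranes of vacuoles that hold pathogens, and on bacteria in the cytosol, open these membranes, and so expose LPS and DNA to sensors. In mice, cells that lack the chromosome 3 genes respond poorly to LPS in the cytosol through caspase-11. Mouse Gbp2, Gbp2b and Gbp5 end in a sequence that receives a lipid anchor by prenylation.

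The total count was 47721888 in the LPS+LCC-12 library and 50618409 in the LPS library. All differences below are between these 2 libraries. A single library per group allows neither a test nor a p-value, and the spread between pools of mice was not measured. Each ratio is LPS+LCC-12 over LPS after scaling of the libraries (TMM), on the log2 scale, with an exact 95% binomial interval that covers counting error only. In bulk libraries fewer cells of a type and less RNA per cell cannot be told apart. The 9 macrophage marker genes, among them Csf1r, Adgre1 and Lyz2, were all within 2-fold. Their summed levels were 9301 counts per 1000000 scaled counts (CPM) in the LPS+LCC-12 library and 7753 CPM in the LPS library. All 10 markers listed for small peritoneal macrophages were detected in both libraries. So were all 10 listed for large peritoneal macrophages, and detection alone therefore does not set the cell type. The neutrophil marker list summed to 3549 CPM with LCC-12 and 9362 CPM with LPS alone.

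The promoters of the chromosome 3 genes are shown first, because interferon acts on such genes through short DNA motifs. Of the 10 genes, 5 matched the RefSeq promoter table (GRCm38.p6): Gbp2, Gbp2b, Gbp3, Gbp5 and Gbp7. Each window of 300 bases runs from 250 bases before to 50 after the RefSeq start, on the plus strand. Capitals mark matches to the core of the interferon-stimulated response element (ISRE), searched on both strands as GAAA, any 2 bases and GAAA (TTTC, any 2 bases and TTTC on the opposite strand), and to the core of the gamma-activated site (GAS), TTC, any 3 bases and GAA, which reads the same on both strands.
Gbp5, chr3:142496684-142496983: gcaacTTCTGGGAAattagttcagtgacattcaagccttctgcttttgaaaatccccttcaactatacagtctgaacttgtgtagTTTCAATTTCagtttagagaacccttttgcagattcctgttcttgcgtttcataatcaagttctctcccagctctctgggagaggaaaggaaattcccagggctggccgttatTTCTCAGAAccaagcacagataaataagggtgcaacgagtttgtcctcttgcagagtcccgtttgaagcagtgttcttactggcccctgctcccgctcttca
Gbp7, chr3:142530086-142530385: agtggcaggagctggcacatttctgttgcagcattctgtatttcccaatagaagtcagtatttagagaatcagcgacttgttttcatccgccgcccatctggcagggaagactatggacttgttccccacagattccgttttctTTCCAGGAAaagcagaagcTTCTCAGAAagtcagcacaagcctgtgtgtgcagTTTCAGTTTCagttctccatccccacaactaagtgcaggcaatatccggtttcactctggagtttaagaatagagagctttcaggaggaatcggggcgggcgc
Gbp3, chr3:142559794-142560093: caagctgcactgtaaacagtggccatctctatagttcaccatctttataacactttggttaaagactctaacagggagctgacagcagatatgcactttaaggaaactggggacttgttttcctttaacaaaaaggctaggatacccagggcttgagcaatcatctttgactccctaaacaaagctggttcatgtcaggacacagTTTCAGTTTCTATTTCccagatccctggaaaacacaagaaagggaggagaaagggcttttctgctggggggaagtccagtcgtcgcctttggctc
Gbp2b, chr3:142594597-142594896: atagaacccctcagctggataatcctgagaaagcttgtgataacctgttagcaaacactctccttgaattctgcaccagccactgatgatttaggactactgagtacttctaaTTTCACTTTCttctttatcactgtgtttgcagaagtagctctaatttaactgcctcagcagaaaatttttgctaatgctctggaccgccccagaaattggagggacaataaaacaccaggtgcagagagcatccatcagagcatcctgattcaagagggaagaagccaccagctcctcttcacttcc
Gbp2, chr3:142620413-142620712: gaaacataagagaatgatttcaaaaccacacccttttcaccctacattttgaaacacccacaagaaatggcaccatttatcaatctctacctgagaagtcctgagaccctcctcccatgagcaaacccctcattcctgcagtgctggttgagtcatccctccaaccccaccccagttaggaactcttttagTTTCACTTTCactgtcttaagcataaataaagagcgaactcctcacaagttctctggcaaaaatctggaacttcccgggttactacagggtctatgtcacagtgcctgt

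All 5 of these windows held an ISRE core, which is present in 3.44% of the 32851 promoter windows of the table. A second RefSeq start of Gbp3, at chr3:142560106-142560405, had neither motif in its window. In each gene the ISRE core lay on the opposite strand. It read TTTCAATTTC in Gbp5, TTTCAGTTTC in Gbp7 and TTTCACTTTC in both Gbp2b and Gbp2, and Gbp3 had a pair of overlapping cores, TTTCAGTTTC and TTTCTATTTC. A GAS core was found in the windows of Gbp5 and Gbp7, with 2 matches in each, and in none of the windows of Gbp3, Gbp2b and Gbp2. It is present in 8.30% of all windows, and both motifs together in 0.454%. The sequence TTCTCAGAA occurred in both Gbp5, 52 to 44 bases before the start, and Gbp7, 87 to 79 bases before the start. Motif matches were not tested as binding sites. The RefSeq start of Gbp5 lies inside the longer GENCODE gene, which begins at 142493978.

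As a family, the 10 genes were lower with LCC-12, but unevenly. Together they had 33711 counts in the LPS+LCC-12 library and 63047 counts in the LPS library, which is 0.0706% of all counts (exact binomial interval 0.0699% to 0.0714%) and 0.125% (0.124% to 0.126%). The summed level was 1.81-fold lower with LCC-12, with a log2 ratio of -0.86 (-0.88 to -0.84). Gbp9, Gbp4, Gbp10 and Gbp5 were lower by 2-fold or more, no member was higher by as much, and 6 lay within 2-fold. All 10 genes reached 50 counts in the library where they were higher, the minimum for such a count. Among the 13482 genes that reached it, 6.65% were lower by 2-fold or more, 4.01% higher and 10.7% in either direction. Among the protein-coding genes of that set these shares were 4.46%, 3.81% and 8.27%. With TMM scaling the whole interval lay beyond 2-fold lower for the same 4 members, against 3.86% of the 13482 genes. With that scaling 9 members had a ratio below 0, against 47.6%. The median log2 ratio was -0.76 over the 10 genes and 0.02 over the 13482 genes. The interval lay below 0 for 7 genes, included 0 for Gbp3 and Gbp6, and for Gbp2b lay above 0 or included it, depending on the scaling.

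**Figure D1:**
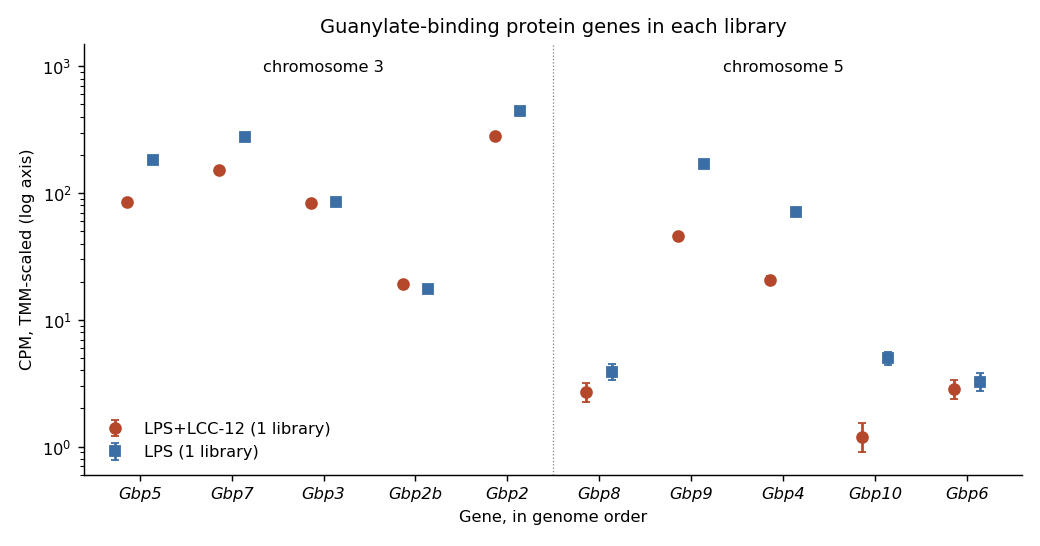
Level of each Gbp gene in the LPS+LCC-12 library (circles) and the LPS library (squares), in CPM on a log axis, in genome order. Bars are exact 95% Poisson intervals, which cover counting error only and are often smaller than the symbols; Gbp9, Gbp4, Gbp10 and Gbp5 were at least 2-fold lower with LCC-12, while the symbols of Gbp3 and Gbp2b lie almost level.

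On chromosome 3, Gbp2 was the most abundant member. Its protein coats vacuoles of Toxoplasma and takes part in activation of the AIM2 inflammasome. Gbp2 (GRCm38, chromosome 3, 142620602 to 142638008, plus strand) had 13717 counts (283.6 CPM) in the LPS+LCC-12 library and 22267 counts (445.9 CPM) in the LPS library. It was 1.57-fold lower with LCC-12, with a log2 ratio of -0.65 (-0.68 to -0.62). Gbp7 (142530342 to 142550149, plus strand), linked to delivery of NADPH oxidase subunits to phagosomes, had 7387 counts (152.7 CPM) with LCC-12 and 13958 counts (279.5 CPM) with LPS alone. Its level was 1.83-fold lower, with a log2 ratio of -0.87 (-0.91 to -0.83). Gbp5 (142493978 to 142522344, plus strand), linked to inflammasome assembly, had 4080 counts (84.4 CPM) with LCC-12 and 9090 counts (182.0 CPM) with LPS alone. It was the only one of the 5 past 2-fold, at 2.16-fold lower, and its whole interval (2.08-fold to 2.24-fold) lay beyond 2-fold. With totals that leave out mitochondrial genes and the 100 most abundant, the log2 interval of Gbp5 (-1.103 to -0.996) no longer lay wholly beyond 2-fold.

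The other two chromosome 3 genes differed little between the libraries. Gbp3 (142560026 to 142573209, plus strand) had 4070 counts (84.1 CPM) in the LPS+LCC-12 library and 4249 counts (85.1 CPM) in the LPS library. The log2 ratio of Gbp3 was -0.02 (-0.08 to 0.05), and its sign changed with the scaling, between -0.05 and 0.04. Gbp2b (142594847 to 142619179, plus strand), long known as Gbp1 and found on Toxoplasma vacuoles, had 926 counts (19.1 CPM) with LCC-12 and 869 counts (17.4 CPM) with LPS alone. Its log2 ratio was 0.14 (0.00 to 0.27), and the interval included 0 with DESeq2 size factors (-0.02 to 0.25) and with upper-quartile scaling (-0.03 to 0.24). Gbp3 and Gbp2b lie between Gbp7 and Gbp2 in the genome, and their intervals did not overlap those of Gbp7 and Gbp2.

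On chromosome 5, where all 5 genes lie on the minus strand, 3 genes had the lowest ratios of the family. Gbp9 (chromosome 5, 105077630 to 105139539) had 2201 counts (45.5 CPM) in the LPS+LCC-12 library and 8465 counts (169.5 CPM) in the LPS library. It was 3.72-fold lower with LCC-12, with a log2 ratio of -1.90 (-1.97 to -1.83). Gbp4 (105115767 to 105139586) had 1004 counts (20.8 CPM) with LCC-12 and 3546 counts (71.0 CPM) with LPS alone, and was 3.42-fold lower (log2 ratio -1.77, -1.88 to -1.67). The intervals of Gbp9 and Gbp4 overlapped each other and lay below that of every chromosome 3 gene. Gbp10 (105215699 to 105239533) was sparse, with 58 counts (1.20 CPM) with LCC-12 and 248 counts (4.97 CPM) with LPS alone. Its log2 ratio was -2.04 (-2.49 to -1.63), 4.11-fold lower with a wide interval of 3.10-fold to 5.61-fold.

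Gbp8 and Gbp6 were low in both libraries and closer to even. Gbp8 (105014150 to 105139540) had 130 counts (2.69 CPM) in the LPS+LCC-12 library and 193 counts (3.86 CPM) in the LPS library, with a log2 ratio of -0.52 (-0.86 to -0.20). Gbp6 (105270702 to 105293698) had 138 counts (2.85 CPM) with LCC-12 and 162 counts (3.24 CPM) with LPS alone, with a log2 ratio of -0.18 (-0.52 to 0.15). A difference for Gbp6 was not detectable at this depth. As a group, the chromosome 5 genes summed to 3531 counts with LCC-12 and 12614 counts with LPS alone, 3.46-fold lower (log2 ratio -1.79, -1.85 to -1.74). The chromosome 3 genes summed to 30180 and 50433 counts in the same order, 1.62-fold lower (log2 ratio -0.69, -0.72 to -0.67). The sums are set by the abundant genes of each cluster, and on each chromosome some members stood close to even.

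The values of Gbp6 and Gbp10 are the least certain of the family, because these genes are close copies. Their coding sequences were 98.4% identical, and each was 90.5% to 91.9% identical to Gbp4, Gbp8 and Gbp9. Of all 100-base windows in the annotated transcripts, 64.5% of those of Gbp6 and 73.5% of those of Gbp10 also occurred in transcripts of another gene. They shared these windows mostly with each other and with Gm43302, an annotated gene whose exons overlap those of both and which had 0 counts in both libraries. Summed, Gbp6 and Gbp10 had 196 counts in the LPS+LCC-12 library and 410 counts in the LPS library, 2.02-fold lower with LCC-12 (log2 ratio -1.02, -1.27 to -0.77). How reads shared between copies were counted is not given in the sources used here, so the difference between Gbp6 and Gbp10 was not resolved.

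For the other 8 genes sequence sharing was small. It was 0% for Gbp2 and Gbp2b and between 0.142% and 4.39% for Gbp5, Gbp3, Gbp4, Gbp9 and Gbp8. It was 10.0% for Gbp7, almost all with the pseudogene Gm43802 inside it, which had 0 counts in both libraries. Gbp3 and Gbp7, neighbours that differed in ratio, were 78.3% identical in coding sequence and shared 0.694% of the windows of Gbp3. Gbp2 and Gbp2b were 82.5% identical and shared none. Gbp8, Gbp9 and Gbp4 are annotated with a shared first exon of about 60 bases, 0.801% to 1.77% of their exon lengths. The pseudogene Gbp11 had 32 counts with LCC-12 and 63 counts with LPS alone, and Gbp2-ps had 0 in both.

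**Figure D2:**
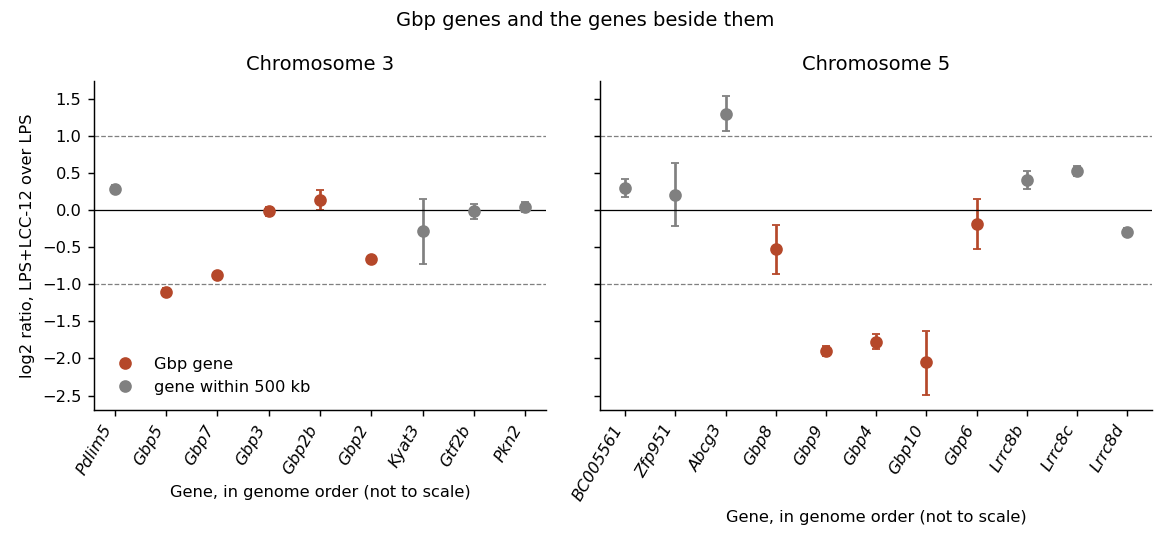
Log2 ratio of LPS+LCC-12 over LPS for the Gbp genes and for protein-coding genes within 500 kb with any count, in genome order and not to scale, with exact 95% counting intervals. Dashed lines mark 2-fold; only Gbp genes pass the lower line, Gbp5 on chromosome 3 and Gbp9, Gbp4 and Gbp10 on chromosome 5.

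No protein-coding gene beside the clusters was lower by 2-fold or more, which 4.46% of protein-coding genes with 50 or more counts were. The genes beside the clusters are too few to show a departure from that share. Within 500 kb of the chromosome 3 members were 4 other protein-coding genes with 50 or more counts, all within 2-fold, with a median log2 ratio of 0.01. Pdlim5, a cytoskeletal adaptor, had 5462 counts with LCC-12 and 4621 counts with LPS alone (log2 ratio 0.29). Pkn2, a protein kinase, had 3706 and 3705 counts in the same order (0.05), and Kyat3 had 81 and 102 counts (-0.28, -0.73 to 0.15). Within 500 kb of the chromosome 5 members were 6 such genes, of which 5 were within 2-fold and 1 was higher, with a median of 0.35. The higher gene was Abcg3, a transporter gene next to Gbp8, with 501 counts with LCC-12 and 210 counts with LPS alone, 2.46-fold higher (log2 ratio 1.30, 1.07 to 1.54). Lrrc8d, a volume-regulated anion channel subunit, was the lowest of the 6, with 5303 counts with LCC-12 and 6696 counts with LPS alone (log2 ratio -0.29, -0.34 to -0.24).

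The make-up of the family's transcripts differed between the libraries, a comparison that needs no scaling. Gbp2 gave 40.7% of the family's counts in the LPS+LCC-12 library (40.2% to 41.2%) and 35.3% in the LPS library (34.9% to 35.7%). Gbp3 gave 12.1% with LCC-12 and 6.74% with LPS alone, and Gbp2b 2.75% and 1.38% in the same order. Gbp9 gave 6.53% with LCC-12 and 13.4% with LPS alone, and Gbp4 2.98% and 5.62% in the same order. The share of Gbp7 was 21.9% (21.5% to 22.4%) with LCC-12 and 22.1% (21.8% to 22.5%) with LPS alone, and these intervals overlapped. Gbp5 gave 12.1% with LCC-12 and 14.4% with LPS alone. The chromosome 5 genes as a group gave 10.5% of the counts with LCC-12 and 20.0% with LPS alone.

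**Figure D3:**
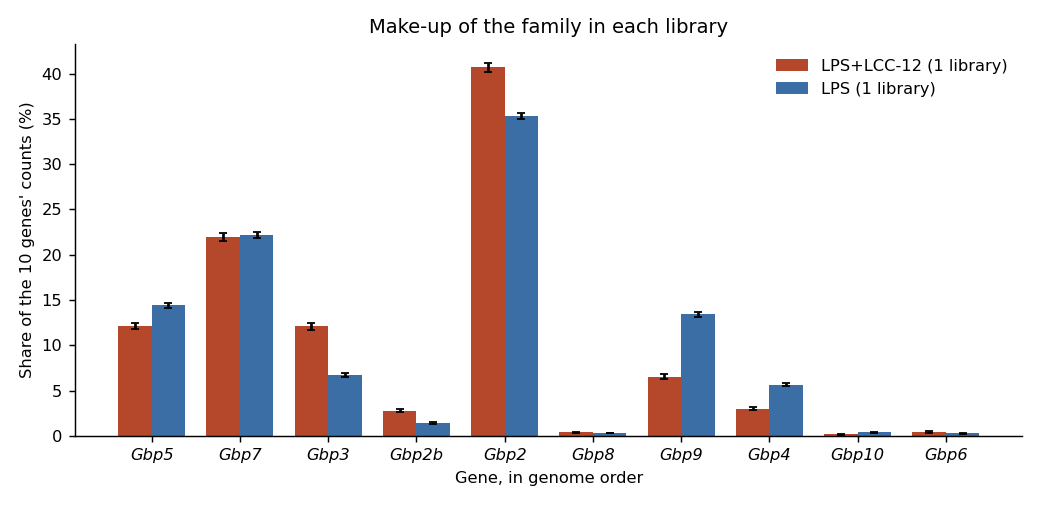
Share of the 10 genes' summed counts held by each gene, in percent, in the LPS+LCC-12 library (left bars) and the LPS library (right bars), with exact 95% binomial intervals for counting error. Gbp2, Gbp3 and Gbp2b take larger shares with LCC-12 and Gbp9, Gbp4 and Gbp5 smaller ones.

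Per kb of annotated exon, the level of Gbp2 stood above the other 9 genes in both libraries, at 112.7 CPM per kb with LCC-12 and 177.2 CPM per kb with LPS alone. Next were Gbp7 at 27.2 and Gbp3 at 25.8 CPM per kb with LCC-12, followed by Gbp5 at 12.7, Gbp9 at 8.80, Gbp2b at 6.78 and Gbp4 at 2.77. With LPS alone the order was Gbp7 at 49.8 CPM per kb, Gbp9 at 32.8, Gbp5 at 27.4, Gbp3 at 26.1, Gbp4 at 9.47 and Gbp2b at 6.16. Gbp8, Gbp6 and Gbp10 were at most 1.28 CPM per kb in both libraries. Neighbours in these orders had separate counting intervals, except Gbp10 and Gbp8 with LPS alone, at 1.28 and 1.12 CPM per kb. The order below Gbp2 depended on the length used. With the longest protein-coding transcript in place of all exon bases, an alternative chosen after seeing the data, Gbp5 ranked just below Gbp2 and Gbp3 with LCC-12, at 27.6 CPM per kb, and just below Gbp2 with LPS alone, at 59.6 CPM per kb. At the low end Gbp6 and Gbp8 were then level with LCC-12, at 1.10 and 1.09 CPM per kb, and Gbp8 was above Gbp10 with LPS alone, at 1.57 and 1.41 CPM per kb.

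The list of related GTPases holds interferon-inducible genes and the atlastins, which are not known as such. Of 14 listed, 12 reached 50 counts, 7 of these were lower by 2-fold or more and none was higher by as much, with a median log2 ratio of -1.03. The number lower was 5 with totals that leave out mitochondrial genes and the 100 most abundant. The antiviral dynamin-like genes Mx2 and Mx1 had the lowest ratios. Mx2 had 504 counts with LCC-12 and 2413 counts with LPS alone (log2 ratio -2.21, -2.35 to -2.07), and Mx1 had 856 and 3914 counts in the same order (-2.15, -2.26 to -2.04). The immunity-related GTPases act with the Gbp proteins on pathogen vacuoles. Among them Gm12250, which encodes Irgb10, had 1204 counts with LCC-12 and 2738 counts with LPS alone (-1.14, -1.24 to -1.04). Tgtp2, a close copy of Tgtp1 whose reads may be shared with it, had 1199 and 2633 counts in the same order (-1.09, -1.19 to -0.99). The regulators Irgm1, Irgm2 and Igtp had log2 ratios of -0.72, -0.84 and -1.02. Of these Igtp passed 2-fold, with an interval (-1.09 to -0.95) that did not lie wholly beyond it. Atlastins, membrane-shaping GTPases that resemble Gbp proteins in fold, were the exceptions above 0, with log2 ratios of 0.87 for Atl3 and 0.14 for Atl2.

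**Figure D4:**
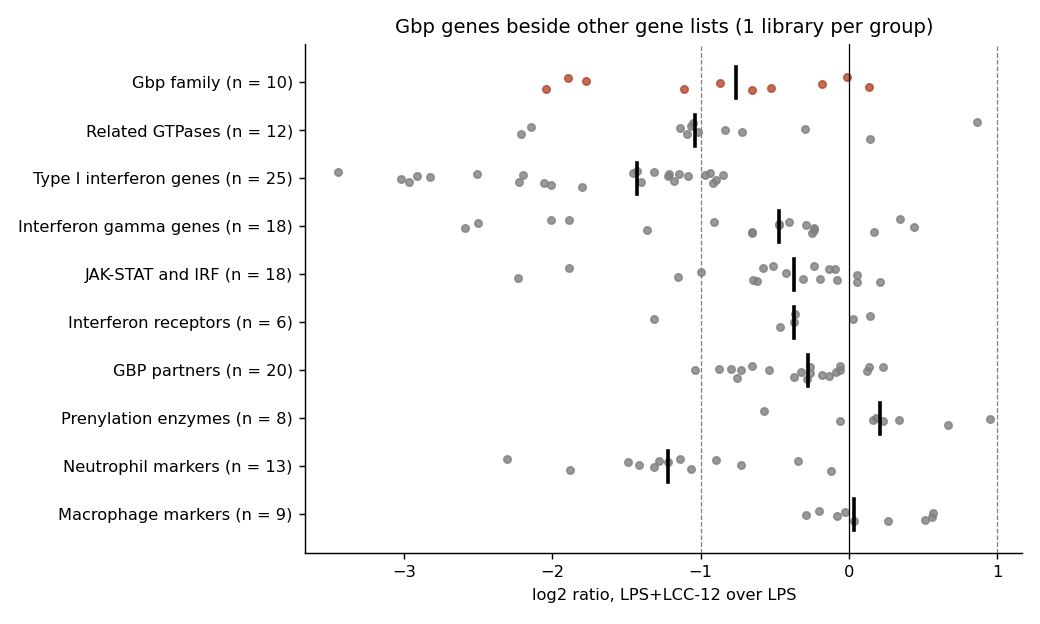
Log2 ratio of LPS+LCC-12 over LPS for each gene that reached 50 counts in either library, by list; the vertical bar is the list's median, dashed lines mark 2-fold and points are spread vertically at random. The Gbp family, with a median of -0.76, lies between the type I interferon list at -1.43 and the interferon gamma list at -0.47, and its members range from -2.04 to 0.14.

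The lists of interferon-stimulated genes lay on either side of the family. Of 25 readable genes known mainly as type I interferon targets, 20 were at least 2-fold lower, none was higher, and the median log2 ratio was -1.43. Ifit3, Ifit1bl1, Ifit2 and Ifi44 had the lowest values there, with log2 ratios of -3.44, -3.02, -2.96 and -2.91. Of 18 genes listed as interferon gamma targets, 5 were lower by 2-fold or more, none was higher by as much, and the median was -0.47. Above 0 were Ciita, Wars and Psmb10, with log2 ratios of 0.44, 0.35 and 0.17. The chemokines Cxcl11 and Cxcl10 had log2 ratios of -2.59 and -2.01, Ido1, an enzyme that degrades tryptophan, had -2.50, and Socs1, an inhibitor of JAK kinases, had -1.89. The Gbp median of -0.76 lies between these lists, and no difference between lists was tested. Whether the listed genes respond to a single kind of interferon was not tested either.

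The interferon ligand genes listed (Ifng, Ifnb1, Ifna1, Ifna2, Ifna4, Ifnl2 and Ifnl3) were at or near 0 in both libraries, 22 h after LPS. Other interferon genes and earlier times were not examined. Ifng, the interferon gamma gene, had 0 counts in both libraries. A floor of 3 counts corresponds to 0.0620 CPM with LCC-12 and 0.0601 CPM with LPS alone. This floor is a set value and not the exact Poisson limit. Ifnb1 had 0 counts with LCC-12 and 5 counts with LPS alone. Of 6 readable interferon receptor genes, 5 were within 2-fold, among them Ifngr1 with a log2 ratio of 0.14 and Ifngr2 with -0.36. Ifnlr1, the interferon lambda receptor, had 677 counts with LCC-12 and 1742 counts with LPS alone and was 2.49-fold lower (log2 ratio -1.32, -1.45 to -1.19).

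Downstream of the receptors, 3 of 18 JAK-STAT and interferon regulatory factor genes were lower by 2-fold or more and none was higher by as much, with a median of -0.37. Of all genes, 6.65% were lower by as much. The number lower on this list was 4 with DESeq2 size factors and with upper-quartile scaling. Irf5 was the highest, with a log2 ratio of 0.21 (0.17 to 0.25). Usp18, which restrains type I interferon signalling, had 1149 counts with LCC-12 and 5576 counts with LPS alone (log2 ratio -2.23, -2.33 to -2.14). Irf7, a driver of type I interferon genes, had 10324 and 23746 counts in the same order (-1.16, -1.19 to -1.12). Socs1, also on this list, has its value above. Transcription factors known for switching on Gbp genes include Irf1 and Irf8, both within 2-fold, with log2 ratios of -0.24 and 0.05. They are named for that role and were picked after the values were seen.

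Another list holds genes that work with or around Gbp proteins in sensing of LPS and DNA, from LPS receptors and inflammasomes to autophagy. Of these 20 genes, 1 was lower by 2-fold or more and 19 lay within 2-fold, with a median of -0.27. That share is close to the 6.65% of all genes. The lower gene was Mefv, which encodes pyrin, with 5016 counts with LCC-12 and 10646 counts with LPS alone (log2 ratio -1.04, -1.09 to -0.99), and it no longer passed 2-fold with totals that leave out mitochondrial genes and the 100 most abundant. Casp4, which encodes caspase-11, had 3549 and 6173 counts in the same order (-0.75, -0.81 to -0.69), and Gsdmd, the pore protein it cleaves, had 7243 and 8965 counts (-0.26). Aim2, the DNA sensor, had 2429 counts with LCC-12 and 2134 counts with LPS alone (0.23, 0.15 to 0.32). All 8 genes of prenylation were within 2-fold, with a median of 0.21, and the most counted, Pggt1b and Fnta, had log2 ratios of 0.16 and 0.34. Zmpste24, a protease that trims prenylated proteins, had 1819 counts with LCC-12 and 972 counts with LPS alone (0.95, 0.84 to 1.06) and passed 2-fold with the totals just named.

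**Figure D5:**
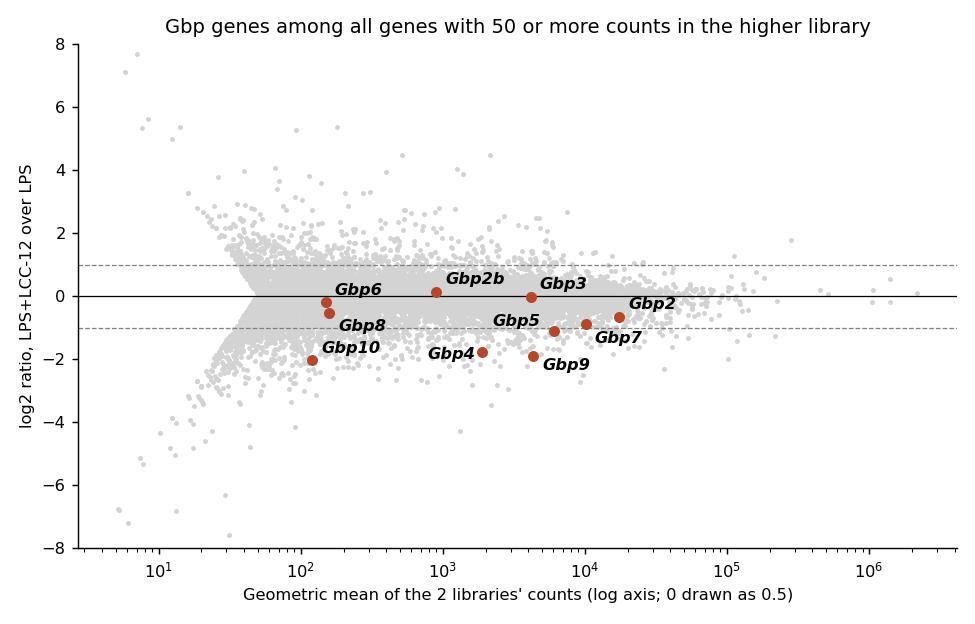
Log2 ratio of LPS+LCC-12 over LPS against the geometric mean count for the 13482 genes that reached 50 counts in either library (grey), with the 10 Gbp genes marked; dashed lines mark 2-fold. Gbp9, Gbp4, Gbp5 and Gbp10 lie below the lower line, and Gbp3 and Gbp2b lie near 0.

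With only 2 libraries, likeness to the family can be measured by the ratio alone. The protein-coding genes with 200 or more counts whose log2 ratio was nearest the family median were Chka, Ksr1, Ms4a7, Dgat1 and Nrg1, all within 0.0027 of it, which is far closer than counting error and places no gene with the family.

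Several marker lists of other cells differed between the libraries alongside the Gbp genes. Of 15 neutrophil markers, 13 had 50 or more counts, all 13 had ratios below 0 and 9 were at least 2-fold lower. Their median log2 ratio was -1.22, and the summed level of the 15 was 3549 CPM with LCC-12 and 9362 CPM with LPS alone. No neutrophil marker was at 0 with LCC-12, and Elane was at 0 with LPS alone. Of 8 monocyte markers, 5 were at least 2-fold lower and 1, Fn1, was at least 2-fold higher, with a median of -1.11. The summed level of the 8 went the other way, at 12937 CPM with LCC-12 and 7240 CPM with LPS alone. Fn1 gave 10656 CPM and 3114 CPM of these sums, in the same order. Of 10 small peritoneal macrophage markers, 9 were higher with LCC-12 by 2-fold or more, with a median of 1.80 and summed levels of 1763 CPM with LCC-12 and 959.3 CPM with LPS alone. The number higher was 7 with upper-quartile scaling. Of all genes, 4.01% were higher by 2-fold or more with TMM scaling. Of 10 large peritoneal macrophage markers, 8 were at least 2-fold higher, with a median of 1.45 and a range of -0.24 to 4.47. Their summed levels were 1090 CPM with LCC-12 and 361.5 CPM with LPS alone. Among markers that reached 50 counts, those lower by 2-fold or more were 4 of 5 for mast cells, 4 of 4 for mesothelial cells and 3 of 4 for fibroblasts, with summed levels of at most 5.54 CPM per list with LCC-12 and 15.5 CPM with LPS alone. They were 1 of 2 for T and NK cells (2.79 CPM with LCC-12 and 5.47 CPM with LPS alone), 1 of 2 for endothelial cells (61.7 and 128.1 CPM in the same order) and 0 of 4 for dendritic cells (6.97 and 9.01 CPM). Nearly all of the endothelial sum was Pecam1, at 59.3 CPM with LCC-12 and 126.7 CPM with LPS alone. Cdh5, the other endothelial marker that reached 50 counts, was higher with LCC-12 (log2 ratio 0.95, 0.32 to 1.61). None of 7 B cell markers was lower, with a median log2 ratio of 0.16 and summed levels of 232.2 CPM with LCC-12 and 197.4 CPM with LPS alone. The part of all these differences in the lower levels of the Gbp genes was not tested.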

How the data were processed

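Stranded libraries were made from 10 ng RNA after ribosomal depletion, with 12 PCR cycles, and read as pairs of 100 bp, per the labels' protocols. A separate label field names the molecule as polyA RNA, which conflicts with ribosomal depletion. The submitters' processing notes name STAR and mm10. How reads were counted, with which annotation and strand setting, is not given in the sources used here. The authors deposited raw, unnormalized counts, 1 column per library.

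Gene symbols and positions came from GENCODE M21 (GRCm38, the same assembly as mm10) by gene ID, and 55394 of 55487 IDs matched. Counts were scaled by TMM (edgeR 4.0.16, R 4.3.3) and 0.5 counts were added. Intervals are exact binomial for ratios and shares and exact Poisson for levels. PCR copies are not independent molecules, so these cover counting error only. A gene counted as lower or higher at 2-fold if it reached 50 counts in either library. Ratio and interval calculations were tested on simulated data. Named from each list, apart from the cell marker lists, were up to 4 members past 2-fold with the largest ratios, or else the 2 with the most counts. Other list members that are named (among them Irgm1, Irgm2, Igtp, Atl3, Atl2, Ifng, Ifnb1, Ifngr1, Ifngr2, Casp4, Gsdmd, Aim2, Ciita, Wars, Psmb10, Irf5, Zmpste24, Kyat3 and Lrrc8d) were chosen for their role or value, after their values were seen. The Gbp members and the lists were chosen with earlier results of these data known. Sequence identity came from global alignment of the longest coding sequences (Biopython 1.88). Alternatives were other scalings (DESeq2 1.42.0 among them), added counts, count minimums and size limits. Protein sequence features were not analysed here.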

Additional observations from a re-analysis of the deposited data

How the results depend on the processing

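The counts of Gbp genes were the same under every scaling and with 5 added counts, at 4 lower and 0 higher. With TMM scaling they were 6 lower with a 1.5-fold limit and 3 lower with a 3-fold limit. They were 4 when the whole counting interval had to lie beyond 2-fold. For Gbp5 that last limit was not met with totals that leave out mitochondrial genes and the 100 most abundant. No log2 ratio of a member moved by more than 0.079 over the scalings and added counts. Other values recomputed were mainly for single genes (Gbp members included), comparison lists, and the median and shares of all genes. Of these, 655 stayed within set limits and 82 did not. The limits were counting error (genes), 0.1 on the log2 scale (medians) or 1.5 times (counts and shares of genes). Of the values for the Gbp median and for the counts lower or higher among Gbp genes and all genes, 43 stayed and 18 did not. The limit for the Gbp median was 0.036. The family median of -0.76 became -0.72 with scaling by total counts, -0.70 with totals that leave out mitochondrial genes and the 100 most abundant, -0.99 with a minimum of 200 counts, which leaves 8 genes, and -0.89 as a mean. It became -0.87 when Gbp6, Gbp10 and Gm43302 were summed as 1 gene, and leaving out Gbp6 and Gbp10 left 3 lower genes; both were chosen after seeing the data. No called value changed sign.

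Counts over all genes, 896 lower and 540 higher, depended on the limits by construction. They were 6439 and 4143 with a minimum of 1 count, 2387 and 1462 with 10, 438 and 298 with 200, 1794 and 1304 at 1.5-fold, 340 and 195 at 3-fold, and 521 and 299 with whole intervals beyond 2-fold. Among protein-coding genes 500 were lower. No paired analysis was possible because each group has 1 library. Depth limits Gbp6, Gbp8 and Gbp10, which had under 250 counts in each library.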
